A study of Mus musculus with 2 samples.

Results

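The calcium-binding protein genes S100a1, S100a4, S100a6, S100a10, S100a11 and S100a13 and the annexin gene Anxa2 were described here, 7 of the 38458 gene columns of a single-cell RNA-seq experiment on mouse embryonic stem cells (mESCs). They were chosen from values of these same data, namely their levels in the libraries, the share of cells with a transcript and their occurrence in the same cells, so these values are given as descriptions with no test. All 7 had a column in the tables, and 4 of them (S100a6, S100a10, S100a11 and Anxa2) had the 50 unique molecular identifiers (UMIs, each marking a captured transcript) over both libraries that were required of a tested gene, a limit met by 6984 genes.

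The study followed mESCs without Terc, the RNA template of telomerase, through telomere shortening to survivors that keep telomeres by alternative lengthening (ALT). Cells of PD100 (pre-ALT, labelled 100 passage) and PD800 (post-ALT, labelled 800 passage) were each captured as 1 inDrops library. Both groups carried the genotype Terc knock-out in the line DKO741, which was derived from E14 mESCs by targeting each Terc allele in turn with drug selection and removing the selection gene from the first allele with Cre recombinase. DKO741 is 1 knock-out line, feeder fibroblasts were used for its upkeep but not for the experiments, and Terc+/+ cells were not analysed here. With 1 library per group, cells are not replicates, and the time point cannot be told apart from the library.

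S100 proteins are small EF-hand proteins that mostly act as dimers, and many of them expose a binding surface for target proteins when calcium rises. Annexins bind acidic membrane phospholipids in the presence of calcium. A dimer of S100A10, which is unusual among S100 proteins in not needing calcium, joins a pair of annexin A2 molecules into a complex at the inner face of the plasma membrane, where it links membrane to cortical actin, and on the cell surface this complex serves as a docking site for plasminogen and its activator.

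After barcodes with under 1000 UMIs or over 20% mitochondrial UMIs were left out, 814 PD100 cells with 1826233 UMIs and 900 PD800 cells with 2580963 UMIs remained, with medians of 2151.0 and 2701.5 UMIs per cell. 8 cell barcodes occurred in both libraries. Markers of embryonic stem cells were present in both libraries, with all 10 detected and summed levels of 11881.3 CPM (UMIs scaled to the same total in each library) at PD100 and 12578.6 at PD800. Dppa5a alone gave 16145 of the 21698 marker UMIs at PD100, and 3 of the 10 markers (Nanog, Esrrb and Klf4) were at least 2-fold higher at PD800. The PD100 library also held 39 endoderm-like cells (4.79%), that is, cells with at least 4 of 17 extraembryonic endoderm markers, against 0 of 900 PD800 cells. Median mitochondrial shares were 1.23% and 4.42%. All intervals given are 95% intervals that cover counting error only. In sums over a library, fewer cells that use a gene and less RNA per cell cannot be told apart.

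Anxa2 was lower in the PD800 library while the S100a10 gene for its main partner was not. Anxa2 had 325 UMIs in PD100 cells, or 178 CPM (159 to 198), and 107 UMIs in PD800 cells, or 41.5 CPM (34 to 50.1). Its log2 ratio of PD800 over PD100 was -2.10 (-2.43 to -1.78), which put it at rank 128 of the 6984 tested genes counted from the lowest ratio. S100a10 had 425 UMIs at PD100, or 233 CPM (211 to 256), and 768 UMIs at PD800, or 298 CPM (277 to 319). The log2 ratio of S100a10 was 0.35 (0.18 to 0.53). The levels of the 2 genes thus differed in opposite directions between these libraries.

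S100a11, whose protein binds annexin A1 and also annexin A2, was higher at PD800. It had 66 UMIs or 36.1 CPM (28 to 46) at PD100 and 159 UMIs or 61.6 CPM (52.4 to 72) at PD800, a log2 ratio of 0.77 (0.35 to 1.21). S100a6, which encodes calcyclin, a protein abundant in proliferating and mesenchymal cells, was the lowest of the 4 tested genes at PD800 relative to PD100. Its 274 UMIs at PD100, or 150 CPM (133 to 169), compared with 14 UMIs at PD800, or 5.42 CPM (2.97 to 9.1). This was 27.7-fold lower, with a log2 ratio of -4.79 (-5.68 to -4.02) at rank 6 of 6984 from the lowest.

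**Figure D1:**
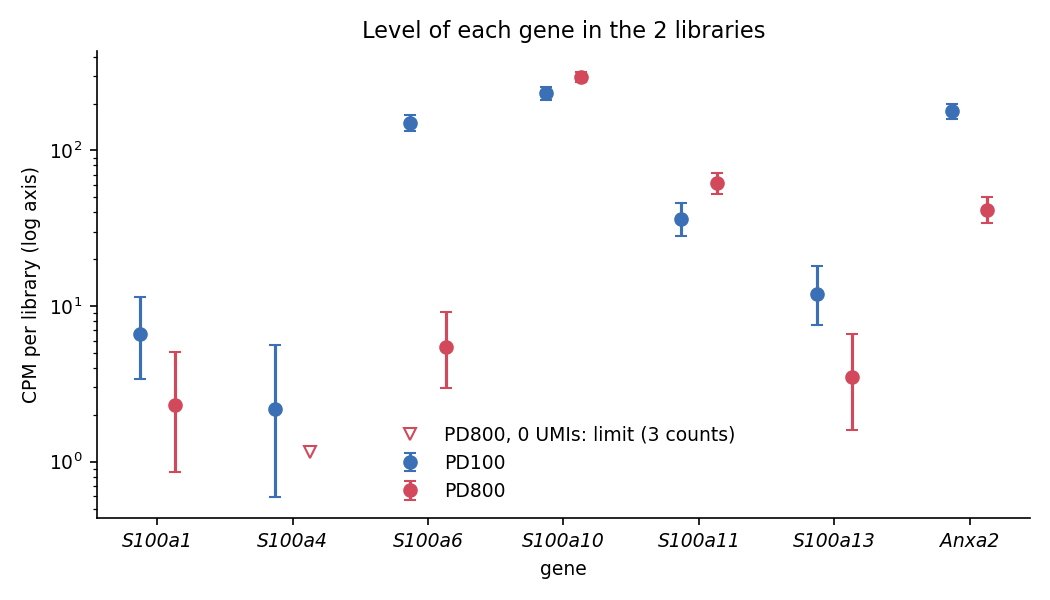
Level of each of the 7 genes in the PD100 and the PD800 library, in CPM on a log axis, with 95% Poisson intervals for counting error. S100a6 and Anxa2 lie lower and S100a10 and S100a11 higher in the PD800 library. The open triangle marks S100a4, which had 0 UMIs there, at the limit of detection of 1.16 CPM (a count of 3).

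The 3 remaining genes were close to the limit of detection, which is set by a count of 3 over a library (1.64 CPM at PD100 and 1.16 CPM at PD800). S100a13, whose protein takes part in the release of FGF1 from cells, had 22 UMIs or 12 CPM (7.55 to 18.2) at PD100 and 9 UMIs or 3.49 CPM (1.59 to 6.62) at PD800, and its log2 ratio was -1.79 (-3.09 to -0.61). S100a1, best known as a regulator of calcium cycling in heart muscle, had 12 UMIs and 6 UMIs, and the interval of its log2 ratio of -1.50 ran from -3.20 to 0.03. S100a4, whose protein binds non-muscle myosin and is a common marker of fibroblasts, had 4 UMIs in 3 PD100 cells and 0 UMIs at PD800, with an interval that ends at 1.43 CPM. With so few UMIs no difference in S100a1 or S100a4 was detectable.

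Of the 4 tested genes, 2 (S100a6 and Anxa2) were at least 2-fold lower at PD800 and 0 were at least 2-fold higher, where 16.9% of all tested genes were at least 2-fold lower and 9.22% at least 2-fold higher. The genes had been chosen with these ratios known, so nothing is read from that count. The median log2 ratio of all tested genes was -0.34, and relative to that median S100a6 was at -4.45, Anxa2 at -1.76, S100a10 at 0.70 and S100a11 at 1.11. On this relative scale 2 of the 4 were at least 2-fold lower and 1 (S100a11) at least 2-fold higher, beside 7.79% and 13.9% of all tested genes. Summed over all 7 genes, 1128 UMIs (618 CPM) at PD100 compared with 1063 UMIs (412 CPM) at PD800, a log2 ratio of -0.58 (-0.71 to -0.46).

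The balance between genes needs no scaling of the libraries, because both counts come from the same cells. For each Anxa2 UMI there were 1.31 S100a10 UMIs at PD100 and 7.18 at PD800, so this ratio was 5.48-fold higher (4.25 to 7.1) at PD800. It does depend on which cells are counted. The endoderm-like cells held 34.5% of the Anxa2 UMIs and 12.9% of the S100a10 UMIs of PD100. The other PD100 cells had 370 S100a10 and 213 Anxa2 UMIs, so the fold is smaller without the endoderm-like cells. The S100a11 UMIs per Anxa2 UMI went from 0.203 to 1.49, or 7.29-fold higher (5.02 to 10.7). Against S100a6, the ratio of S100a10 UMIs was 35.3-fold higher (20.3 to 66.3) and that of Anxa2 UMIs 6.43-fold higher (3.57 to 12.4). S100a11 and S100a10 kept closer to each other over all cells, with 0.155 and 0.207 S100a11 UMIs per S100a10 UMI. This was a fold of 1.33 whose interval (0.969 to 1.85) includes no difference. The other PD100 cells had 52 S100a11 UMIs beside their 370 S100a10 UMIs. This fold is thus larger without the endoderm-like cells, and its interval there was not computed. The fold of Anxa2 against S100a6 is larger too, with 213 Anxa2 and 269 S100a6 UMIs in the other PD100 cells.

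The 6 S100a genes lie on chromosome 3, in the S100 gene clusters of the mouse (GRCm38, GENCODE M21). The first stretch holds S100a1 at chr3:90511034-90514392 on the minus strand, and S100a13 at chr3:90514435-90524581, S100a4 at chr3:90603771-90606045 and S100a6 at chr3:90612882-90624181 on the plus strand. S100a1 and S100a13 start 43 bases apart on opposite strands. The second stretch begins 2.9 Mb further on and holds S100a11 at chr3:93520488-93526287 and S100a10 at chr3:93555080-93564643, both on the plus strand. In the first stretch S100a6 was lower at PD800, and no difference in S100a1 or S100a4 was detectable. S100a13 was lower (22 and 9 UMIs) and S100a3, which lies between S100a13 and S100a4, was higher (5 and 39 UMIs). Both had too few UMIs to count as tested genes. In the second stretch S100a10 and S100a11 were higher. Anxa2 is on chromosome 9 (chr9:69453620-69491795, plus strand).

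Within 100 kb of the S100a genes 5 other genes were tested, all beside the first stretch and none beside S100a10 and S100a11. Of these, 0 were at least 2-fold lower (16.9% of all tested genes) and 1 was at least 2-fold higher (9.22%), too few to set apart from those shares, and their median log2 ratio was 0.09, against -0.34 for all tested genes. The neighbours were Ilf2 (0.05) and Ints3 (0.09), which encode an RNA-binding factor and an Integrator subunit, Snapin (0.42), which encodes a SNARE-binding protein, Chtop (-0.62), which encodes an mRNA export factor, and Npr1 (1.13, 0.53 to 1.78), which encodes a natriuretic peptide receptor.

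The promoters of Anxa2, S100a6 and S100a11 are printed because the transcripts of these genes differed in different directions or by very different amounts. RefSeq (GRCm38.p6) gave the 250 bases before its own annotated start for 6 of the 7 genes, all but S100a10. Capitals mark matches, on either strand, to TGANTCA (the AP-1 motif, found in 6.75% of 32851 promoter windows of this length), GGGCGG (the GC box, 32.7%), TATAAA (the TATA box, 12.4%) and GGAATG (the TEAD motif, 12.6%), and none of these matches overlap here. The windows are chr9:69453433-69453682 for Anxa2, chr3:90612644-90612893 for S100a6 and chr3:93520246-93520495 for S100a11, each on the plus strand and written from the far end towards the start. Start here means the RefSeq start, and each of these windows runs past the GENCODE start given above. For Anxa2 (GENCODE start at 69453620) the TATA box and the GC boxes nearest to it thus lie inside the GENCODE gene.
Anxa2: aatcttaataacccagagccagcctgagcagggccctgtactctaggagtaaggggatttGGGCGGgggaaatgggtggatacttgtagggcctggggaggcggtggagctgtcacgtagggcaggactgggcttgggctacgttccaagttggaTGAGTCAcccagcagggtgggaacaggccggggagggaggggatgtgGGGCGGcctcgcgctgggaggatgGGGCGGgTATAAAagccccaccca
S100a6: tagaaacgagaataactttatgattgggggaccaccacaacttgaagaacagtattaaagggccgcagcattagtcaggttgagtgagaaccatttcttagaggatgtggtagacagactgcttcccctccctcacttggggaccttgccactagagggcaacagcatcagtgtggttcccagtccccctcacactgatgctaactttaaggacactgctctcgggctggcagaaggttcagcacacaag
S100a11: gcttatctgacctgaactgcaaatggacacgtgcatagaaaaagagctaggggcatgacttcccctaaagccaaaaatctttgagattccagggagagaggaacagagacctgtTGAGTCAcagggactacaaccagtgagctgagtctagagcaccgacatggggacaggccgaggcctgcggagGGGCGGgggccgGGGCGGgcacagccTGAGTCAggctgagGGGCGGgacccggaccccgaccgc

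The Anxa2 window holds 1 AP-1 match, whose first base is 95 bases before the RefSeq start, 3 GC boxes and a TATA box 17 bases before that start. The S100a11 window holds 2 AP-1 matches, 136 and 38 bases before the start, and 3 GC boxes. None of the 4 motifs is in the S100a6 window, which has 3 CG dinucleotides where the Anxa2 window has 9, the S100a11 window 11 and the median promoter 6. In the windows not printed, S100a4 had a TATA box 31 bases before its start, and S100a1 and S100a13 had no match. These matches describe letters in the windows and were not set against binding data. Anxa2 and S100a11 both carry AP-1 letters and GC boxes. Their levels differed in opposite directions between the libraries, and a link between these letters and the levels was not tested.

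Shares of cells were compared after each cell had been thinned to 1000 UMIs, so that depth was equal. S100a6 was found in 100 of 814 PD100 cells, or 12.3% (10.1 to 14.7), and in 6 of 900 PD800 cells, or 0.667% (0.245 to 1.45). Without thinning, the shares were 19.5% and 1.22%. Anxa2 was found in 87 PD100 cells, or 10.7% (8.65 to 13), and in 36 PD800 cells, or 4% (2.82 to 5.49), against 17.9% and 8.33% without thinning. Both genes were thus met in fewer PD800 cells at equal depth.

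S100a10 was found in 16.8% of thinned PD100 cells (14.3 to 19.6) and in 22.7% of thinned PD800 cells (20 to 25.5), against 29% and 45.9% without thinning. S100a11 was found in 3.32% (2.2 to 4.79) and 6.33% (4.83 to 8.13), against 6.27% and 14.6%. Both genes were met in more PD800 than PD100 cells at equal depth. The shares of S100a13 were 1.47% (0.764 to 2.56) and 0.333% (0.0688 to 0.971), and those of S100a1 0.86% (0.346 to 1.76) and 0.111% (0.00281 to 0.618), with intervals that overlap. No cell type here is known to lack these genes, so a background share from free RNA could not be given, and shares under about 1% are not read as expression.

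**Figure D2:**
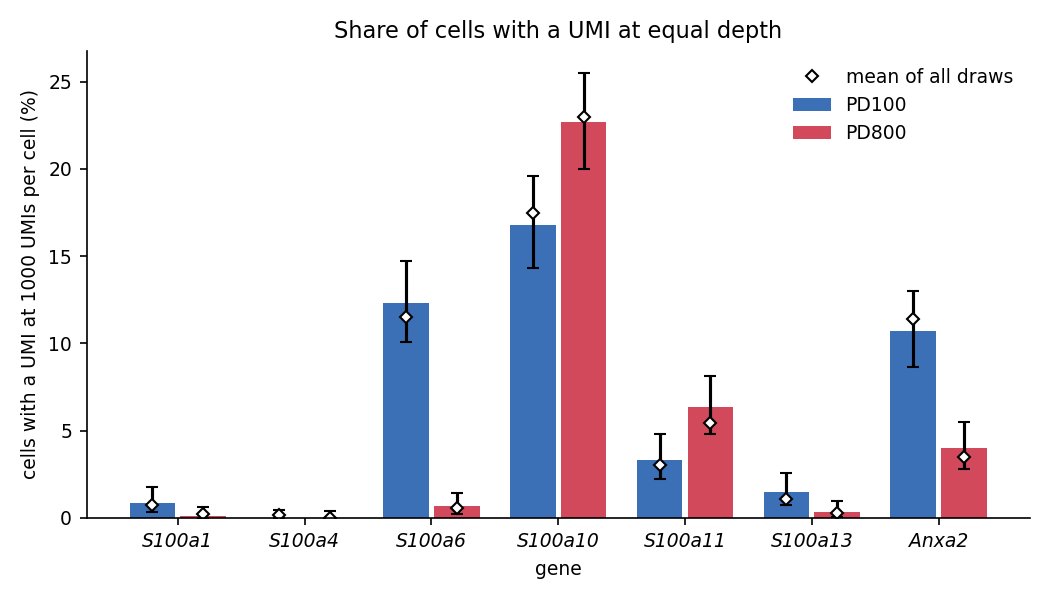
Percent of cells with at least 1 UMI of each gene in the PD100 and the PD800 library after thinning each cell to 1000 UMIs, with exact binomial 95% intervals and the mean over all possible draws as diamonds. S100a6 is in 12.3% of PD100 cells and 0.667% of PD800 cells, and S100a10 is in 16.8% and 22.7%.

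Within the PD100 library the transcripts were unevenly spread. Anxa2 reached 24 UMIs in 1 cell, and 29 cells (3.56%) together held 50% of its UMIs. For S100a6 the highest cell had 11 UMIs and 42 cells (5.16%) held 50% of the UMIs, and for S100a10 these values were 6 UMIs and 65 cells (7.99%). A gene with few UMIs has them in few cells in any case (18 cells held 50% of the 66 S100a11 UMIs). Uneven spread is thus not read from these cell counts alone. In thinned PD100 cells the Fano factor (variance over mean, 1 for random sampling from a single level) was 2.61 for Anxa2, 1.55 for S100a6 and 1.42 for S100a10. At PD800 it was 1.24 for Anxa2, 1.28 for S100a6 and 1.19 for S100a10. The Fano factor also depends on the mean, and the thinned cells held 141 Anxa2 UMIs at PD100 and 42 at PD800, so a difference in spread between the libraries is not read from it.

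The endoderm-like PD100 cells carried high Anxa2. These 39 cells held 112 of the 325 Anxa2 UMIs (34.5%), at 1217.9 CPM (1002.8 to 1465.4) against 123 CPM (107 to 140) in the other 775 PD100 cells, a ratio of 9.92 (7.82 to 12.5). S100a11 was 5.08-fold higher in them (2.6 to 9.3), with 152 CPM against 30 CPM. S100a10 was 2.8-fold higher (2.07 to 3.73), with 598 CPM against 213 CPM. S100a6 differed the other way, with 5 UMIs or 54.4 CPM (17.7 to 127) in the endoderm-like cells and 155 CPM (137 to 175) in the others, a ratio of 0.351 (0.113 to 0.828). None of the genes was used as a marker. The class is a range set by the count of markers, and 2 cells with 3 markers lay just under the limit and 3 cells with 4 markers just above it.

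**Figure D3:**
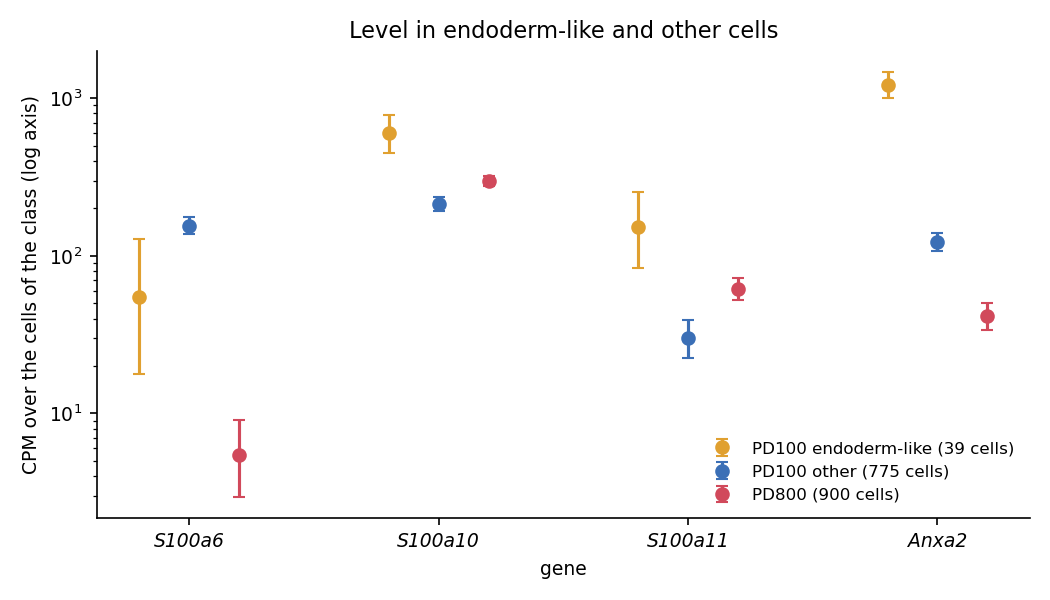
Level of S100a6, S100a10, S100a11 and Anxa2, in CPM on a log axis with 95% Poisson intervals, in endoderm-like PD100 cells, other PD100 cells and PD800 cells. Anxa2 is at 1217.9, 123 and 41.5 CPM in these classes, and S100a6 is at 54.4, 155 and 5.42 CPM.

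When endoderm-like cells were left out, the log2 ratio of PD800 over PD100 was -1.57 (-1.92 to -1.23) for Anxa2, -4.84 (-5.73 to -4.07) for S100a6, 0.48 (0.30 to 0.66) for S100a10 and 1.04 (0.58 to 1.52) for S100a11. Anxa2 was therefore lower at PD800 also among the remaining cells, by less than over all cells. The S100a6 value differed little from that over all cells.

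S100a6 and S100a4 are often used to mark fibroblasts, and feeder fibroblasts were part of the culture history. The 14 fibroblast markers summed to 40 UMIs (21.9 CPM) at PD100 and 44 UMIs (17 CPM) at PD800, and 0 cells in either library had 3 or more of them. Col1a1 was at 0 UMIs in the PD100 library. The PD100 cells were classed by S100a6 after thinning, and their markers were counted over all UMIs. The 100 cells with S100a6 had 2 fibroblast marker UMIs, or 9.27 CPM, against 23.6 CPM in those without it. Embryonic stem cell markers were at 12817.1 CPM in cells with S100a6 and at 11756.0 CPM in cells without it. With cells classed over all UMIs instead, the 159 PD100 cells with S100a6 had 7 fibroblast marker UMIs, or 18.1 CPM (7.26 to 37.2). The 655 cells without it were at 22.9 CPM (15.8 to 32.2).

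Trophoblast markers were few, and 0 of the 8 had enough UMIs to be tested. They summed to 87 UMIs (47.6 CPM) at PD100 and 12 UMIs (4.65 CPM) at PD800, and Krt7 gave 44 and Ascl2 21 of the 87, while Cdx2 (0 and 1 UMIs) and Elf5 (1 and 2) were at or near 0 in both. The sum was at 148 CPM in PD100 cells with S100a6 and 34.1 CPM in those without, and at 128 CPM with Anxa2 and 38.4 CPM without. Just 1 PD100 cell had 3 or more of the 8 markers. As primed epiblast markers 6 genes were listed (Fgf5, Otx2, Pou3f1, Sox4, Krt17 and Dnmt3b). They summed to 526 UMIs (288 CPM) at PD100 and 217 UMIs (84.1 CPM) at PD800. Of the 4 tested, 3 (Otx2, Dnmt3b and the keratin gene Krt17, with 84 and 7 UMIs) were at least 2-fold lower at PD800, and Sox4 was not. Within PD100 the 6 markers were at 264 CPM in cells with S100a6 and 291 CPM in those without, and at 256 CPM with Anxa2 and 292 CPM without. The part of trophoblast-like or primed cells in the results was not tested.

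The genes were also described by how often they occurred in the same PD100 cell, as the number of thinned cells with both divided by the number that the product of their shares gives. S100a6 and S100a10 were both found in 32 cells, where the product gives 16.8, a ratio of 1.9 (1.31 to 2.66). S100a6 was present in 23.4% of the 137 cells with S100a10 and in 10% of the 677 cells without it. S100a6 and Anxa2 met in 23 cells, where the product gives 10.7, a ratio of 2.15 (1.37 to 3.21). This second ratio depended on the draw of UMIs and was 1.16 with another random seed, and averaged over all possible draws the 2 ratios were 1.54 and 1.65.

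S100a10 and Anxa2, the genes for the partners of the complex, met in 20 thinned cells where the product gives 14.6, a ratio of 1.37 (0.838 to 2.1). Their ratio averaged over all draws was 1.65, and with all UMIs it was 1.56 (1.22 to 1.96), S100a10 being present in 45.2% of the 146 cells with Anxa2 and 25.4% of the 668 cells without. S100a11 and Anxa2 met in 7 thinned cells, a ratio of 2.43 (0.977 to 4.98), and 2.76 averaged over all draws. Without endoderm-like cells the averaged ratios were 1.97 for S100a6 with Anxa2, 1.65 for S100a10 with Anxa2, 2.56 for S100a11 with Anxa2 and 1.04 for S100a10 with S100a11. All of these rest on few cells of 1 library, and deeper cells show more genes of any kind before thinning.

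**Figure D4:**
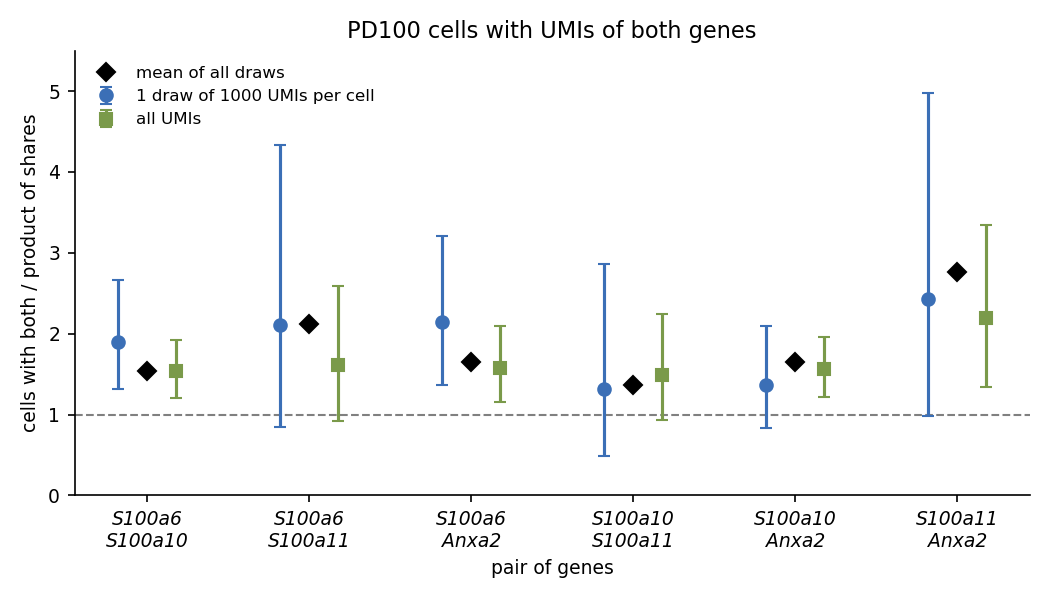
Cells of the PD100 library with both genes of a pair, divided by the number that the product of their shares gives, for 1 draw of 1000 UMIs per cell (circles) and for all UMIs (squares), with 95% intervals, and averaged over all draws (diamonds). A value of 1 means that the genes occur together as often as their shares give, and S100a6 with Anxa2 is at 2.15 in the draw shown, at 1.16 with another random seed (not drawn) and at 1.65 averaged over all draws.

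At PD800, S100a6 and Anxa2 met in 2 thinned cells, too few to describe. S100a10 and Anxa2 met in 6 thinned cells, where the product of shares gives 8.16, a ratio of 0.735 (0.27 to 1.59), and S100a10 and S100a11 in 19 cells against 12.9, a ratio of 1.47 (0.889 to 2.28). At PD100, 15 thinned cells had 3 or more of the 7 genes and 65.5% had none, and at PD800 0 cells had 3 or more and 69.4% had none. Because S100a6 and Anxa2 were each in fewer PD800 cells, no difference in co-occurrence is read from these numbers.

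The genes most like Anxa2 across PD100 cells were found by Pearson's r of log(1 + thinned counts) over 814 cells. Krt18 came first (0.38), followed by Col4a1 (0.36), Cryab (0.36), Krt8 (0.35), Col4a2 (0.34), Lama1 (0.34), Reep5 (0.31), Serpinh1 (0.30), Lamb1 (0.29) and Tax1bp3 (0.29). Without endoderm-like cells Krt18 remained at 0.32 and Krt8 at 0.26, while Col4a1 was at 0.04, Col4a2 at -0.02 and Lama1 at 0.02. Col4a1, Col4a2 and Lama1 are among the markers that define the endoderm-like cells. Leaving those cells out can thus lower their values by construction, and nothing is read from that fall. The other listed genes were not markers, with Reep5 at 0.11, Cryab and Lamb1 at 0.07, and Serpinh1 and Tax1bp3 at -0.00. Krt18 and Krt8 encode the keratin pair of simple epithelia. For S100a6 the highest values were weak, 0.17 for Sfn, 0.15 for Lgals1, Krt18, Lgals3, Scoc and Cs, and 0.14 for S100a10, Gpx4, Champ1 and Rhbdf1. Values this low in sparse counts are listed with nothing read from them, and all cells share 1 library.

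The other annexin genes were lower at PD800 too. Of 12 further columns that start with Anxa, 7 were tested, and 6 of these were at least 2-fold lower (16.9% of all tested genes) and 0 at least 2-fold higher (9.22%), with a median log2 ratio of -1.89 (all tested genes -0.34). Anxa1, the partner of S100a11, had 69 UMIs at PD100 and 11 at PD800, a log2 ratio of -3.15 (-4.22 to -2.22). Anxa3 was at -1.99 (-2.78 to -1.25), Anxa4 at -1.93 (-2.85 to -1.07) and Anxa7 at -1.64 (-2.06 to -1.23). Anxa6 was the tested annexin that was less than 2-fold lower, at -0.86 (-1.30 to -0.43). Relative to the median of all tested genes the count was also 6 of 7, beside 7.79% of all tested genes.

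Without endoderm-like cells 5 of the 7 annexins were at least 2-fold lower, beside 16.5% of all tested genes. The gene that left the count was Anxa5, of whose PD100 UMIs 61.4% came from endoderm-like cells and whose log2 ratio became -0.57 (-1.63 to 0.49). Anxa1 had 1.45% of its UMIs in those cells and stood at -3.20 (-4.27 to -2.27) without them.

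**Figure D5:**
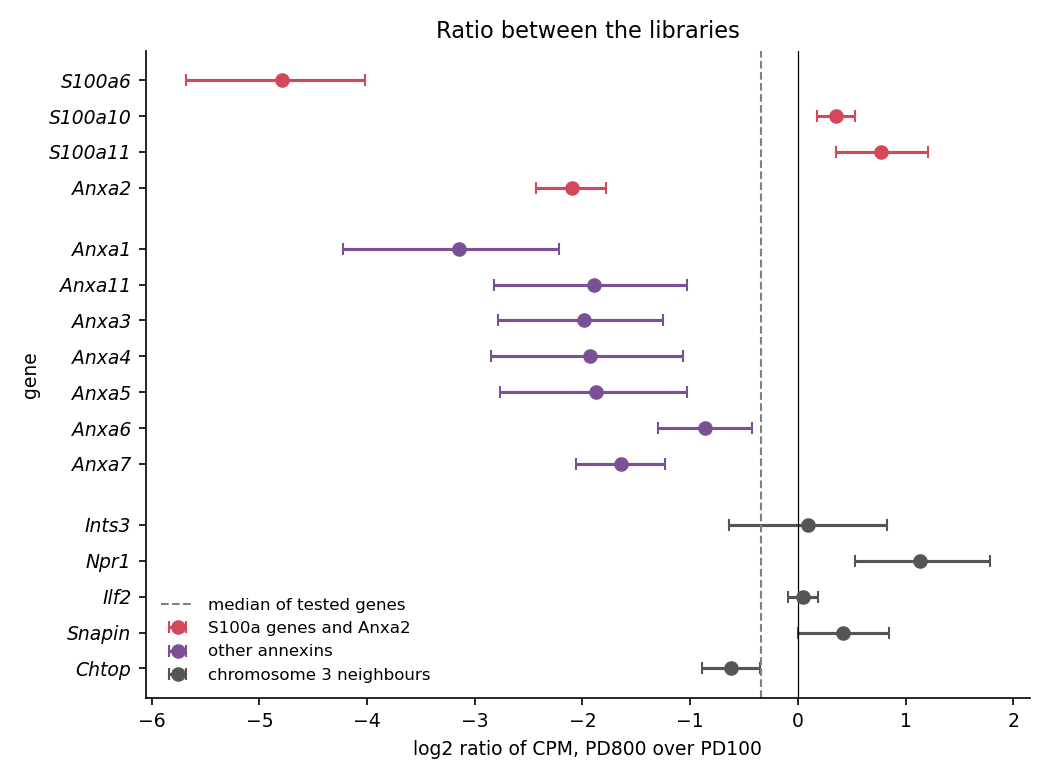
Log2 ratio of CPM, PD800 over PD100, for the 4 tested genes, the 7 other tested annexins and the 5 tested chromosome 3 neighbours, with 95% counting intervals, 1 point per gene and a dashed line at the median of all 6984 tested genes (-0.34). The other annexins all lie below that line, from -3.15 for Anxa1 to -0.86 for Anxa6, and the neighbours lie between -0.62 and 1.13.

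Among 12 other columns that start with S100, the 1 tested was S100pbp, which encodes an S100-binding protein and not an S100 protein, with 13 UMIs at PD100 and 50 at PD800 (log2 ratio 1.44, 0.54 to 2.45). The others were too low to be tested. S100a3 had 5 and 39 UMIs (2.46, 1.12 to 4.17), and 5 genes (S100a2, S100a8, S100a9, S100b and S100z) had 0 UMIs in both libraries.

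Of 14 binding partners and pathway genes 8 were tested, 2 of which were at least 2-fold lower (16.9% of all tested genes) and 0 at least 2-fold higher (9.22%), with a median of -0.57. A count of 2 among 8 is not set apart from that share. Plaur, the receptor for urokinase, the protease that activates plasminogen, had 134 UMIs at PD100 and 0 at PD800. With 3 counts put in for the 0, Plaur was 63.1-fold lower (log2 ratio -5.98), and the upper end of its interval was -5.66. Ahnak, which encodes a large scaffold bound by the annexin A2 complex, was at -1.43 (-2.28 to -0.61). Ppp5c and Sugt1, which encode a phosphatase and a co-chaperone that bind S100 proteins, were at -0.91 (-1.11 to -0.72) and -0.72 (-0.86 to -0.58). Cacybp, which encodes the calcyclin-binding protein named for S100A6, had 825 and 1221 UMIs and a log2 ratio of 0.07 (-0.06 to 0.20), unlike S100a6 itself.

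Of 19 actin and membrane skeleton genes 15 were tested, 5 at least 2-fold lower (16.9% of all tested genes) and 2 at least 2-fold higher (9.22%), with a median of -0.60. Relative to the median of all tested genes 2 were lower (7.79%) and 2 higher (13.9%), close to those shares, and without endoderm-like cells 3 were lower (16.5%). Lgals1, which encodes galectin-1, had 1349 and 322 UMIs (-2.57, -2.75 to -2.39) and Msn, which encodes the membrane-to-actin linker moesin, was at -1.69 (-2.25 to -1.15). Vim, the mesenchymal intermediate filament gene, had 74 and 388 UMIs (1.89, 1.53 to 2.27), and Tmsb4x, which encodes an actin monomer-binding peptide, had 520 and 1636 UMIs (1.15, 1.01 to 1.30).

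Some reads could have been shared between similar genes. Of the 31-base words of S100a4 transcripts, 49.2% also occur in Gm42674, which had 0 UMIs in both libraries, and of those of S100a11, 47% occur in Gm12854 and 33.1% in Gm7665, which have no column. No other gene shared 10% or more of the words of S100a1, S100a6, S100a10, S100a13 or Anxa2.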

How the data were processed

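The authors deposited unnormalised counts (whole numbers of UMIs for every barcode and gene) from the inDrops pipeline, with reads mapped to GRCm38 transcripts (the submitters' processing notes name mm10 and Scanpy). The annotation release was not given in the sources used here. Barcodes with under 1000 UMIs or over 20% mitochondrial UMIs were left out, the limits the study states, which here left more cells of each library than the study gives. Counts were summed per library and scaled to CPM with exact Poisson intervals, ratios were given exact conditional intervals and shares exact binomial intervals, all at 95%. A ratio with 0 UMIs on one side was computed with 3 counts put in for that library, and its interval has 1 end only. Ratios were described for genes with 50 UMIs or more over both libraries. With 1 library per group no test was made. Cells were thinned to 1000 UMIs (random seed 1). Scrublet, as run in Scanpy 1.11.5 at an expected rate of 5%, called 14 PD100 cells (1.72%) and 8 PD800 cells (0.889%) as doublets. These cells were kept, and an alternative omitted them. The software was SciPy 1.17.1, pandas 2.3.3, NumPy 2.4.6 and matplotlib 3.10.9 under Python 3.11.15, and the scripts were tested on simulated data.

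The genes and lists were chosen with earlier results of these data known. Named genes were the 7 genes, up to 4 tested genes of each list with the largest ratios by the end of the interval nearer to 1, the 10 genes with the highest r with S100a6 and with Anxa2, and tested chromosome 3 neighbours. Anxa5, Anxa6, Cacybp, S100a3, single cell type markers and the S100 genes at 0 were named after their values were seen. Alternatives were median-of-ratios scaling, other cell filters, depths and seeds, cells weighted equally, and leaving out mitochondrial UMIs, doublet calls, endoderm-like cells or shared barcodes.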

Additional observations from a re-analysis of the deposited data

Results flagged for a closer look

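The barcodes left out by the cell filter, which no comparison above used, also held transcripts of S100a1, S100a6, S100a10, S100a11 and Anxa2. Their levels were above the limit set by a count of 3 (12.2 CPM over the 477 PD100 barcodes and 6.54 CPM over the 766 PD800 barcodes). S100a4 and S100a13 had 0 UMIs in these barcodes of both libraries. S100a6 was at 207 CPM in those of PD100 and at 30.5 CPM in those of PD800, a log2 ratio of -2.76 (-3.73 to -1.88) against -4.79 in the cells. Anxa2 was at 223 and 32.7 CPM, a log2 ratio of -2.77 (-3.70 to -1.92). S100a10 was at 348 and 299 CPM, with a log2 ratio of -0.22 (-0.62 to 0.18), and S100a11 at 52.7 and 45.8 CPM, with a log2 ratio of -0.20 (-1.27 to 0.92). Both intervals include no difference. For S100a10 the interval lies below the 0.35 of the cells, so its higher level at PD800 was not seen in the barcodes left out. For S100a11, with 13 and 21 UMIs, the interval also includes the 0.77 of the cells and cannot decide this. What these barcodes hold was not tested.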

How the results depend on the processing

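No paired analysis was possible because each group is 1 library. Of 145 alternative values, 119 stayed inside the limits set around the value reported, 26 did not, and 0 called values changed sign. The limits were the counting interval, or 1.5 times for counts. For the median of the chromosome 3 neighbours they were the lowest and highest neighbour (-0.62 to 1.13), so its move from 0.09 to 0.56 under median-of-ratios scaling counted as inside. Of the 145 values, 18 came from alternatives chosen after seeing the data. Median-of-ratios scaling, which adds 0.47 to every log2 ratio, gave 0.83 for S100a10, 1.24 for S100a11, -1.63 for Anxa2 and -0.11 for the sum of the 7 genes. That sum was -0.45 in cells with at least 2000 UMIs and -0.39 without endoderm-like cells, where Anxa2 was at -1.57. The count of actin and membrane skeleton genes at least 2-fold lower was 5, and became 2 under median-of-ratios scaling, 2 relative to the median of tested genes and 3 without endoderm-like cells. S100a6 at PD800 was in 0.614% of cells at 2000 UMIs and 1.22% unthinned. The other shares were higher in both settings: unthinned, 19.5% for S100a6 at PD100, 29% and 45.9% for S100a10 at PD100 and PD800, 6.27% and 14.6% for S100a11, and 17.9% and 8.33% for Anxa2, and at 2000 UMIs, where 465 PD100 and 651 PD800 cells remained, 16.1%, 27.7% and 39.3%, 6.24% and 10.4%, and 17.2% and 7.07%. Another seed gave 4.78% for S100a11 at PD800 and a ratio of 1.16 for S100a6 with Anxa2. Co-detection intervals were wide: S100a10 with S100a11 went from 1.32 (0.485 to 2.86) to 0.852 without endoderm-like cells, and S100a6 with S100a11 from 2.11 (0.85 to 4.33) to 1.07 at 2000 UMIs. A depth of about 1000 UMIs per cell leaves most transcripts of these genes unseen, so a cell without a UMI is not a cell without the transcript.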
